A study of Mus musculus with 15 samples.

Results

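The response described here is the change in gene expression that lung fibroblasts of mice with early metastases of either breast cancer cell line had in common, measured against fibroblasts of healthy lungs. It was read from 9 of the 15 arrays of the series: 6 arrays of lungs at week 1 after injection of cancer cells, 3 for each line, pooled, and 3 arrays of healthy lungs. All 18194 genes with a probe set of their own were tested, and a gene was counted as part of the shared response when the pooled comparison called it and its difference from healthy had the same sign in both lines. In all, 9 genes met this, 4 higher (0.022% of those tested) and 5 lower (0.0275%) at week 1.

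The mice were female NSG animals, 6 to 8 weeks old when cells were injected into the tail vein. NSG mice lack mature T, B and natural killer cells but keep myeloid cells, so the responses of lymphocytes are missing from this host. The injected cells were MDA-MB-231 (MDA), a human breast cancer line, or MDA-MB-231-LM2 (MDA-LM2), a derivative of it that colonizes the lung more readily. Both lines carried a reporter for imaging, and mice of similar metastatic burden were chosen. The groups are called MDA micro and MDA-LM2 micro after the micrometastases present at week 1. Healthy lungs came from age-matched NSG mice, whose treatment beyond that, such as a sham injection, is not given in the sources used here. Each array stood for fibroblasts of 1 to 3 mice, sorted from whole lungs as positive for PDGFRA or PDGFRB and negative for markers of leukocytes, myeloid cells, endothelium and epithelium. The week 3 arrays of both lines (macro) are given for a few genes as later values of the same groups.

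Fibroblasts build and repair the connective tissue of the lung, and they also secrete chemokines, small proteins that guide leukocytes and other cells with the matching receptor. Interferons act through STAT and IRF transcription factors on genes that carry an interferon-stimulated response element, while cytokines such as interleukin-1 act through NF-kB, which drives inflammatory chemokines. Cells also follow a daily clock, in which the activators encoded by Arntl, Clock and Npas2 switch on Per, Cry, Nr1d and Dbp family genes, and the Nr1d proteins in turn repress Arntl and Npas2. Genes of the early response to stimulation, such as Fosb and Jun, are switched on within minutes by growth factors and by the handling of tissue.

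The chemokine genes on either side of the shared response, Cxcl10 among the higher genes and Cxcl1 among the lower, both lie on chromosome 5 in the mouse. Their upstream sequences are shown because the letters of an NF-kB site stand in both, and those of Ifit1 and Ifit3, induced by interferon, because these carry the response element for it. Each run is the 250 bases before the annotated start, read 5′ to 3′ on the strand of the gene, from RefSeq on GRCm38.p6, with matches to the motifs searched in capitals.
Cxcl10, chr5:92348890-92349139, minus strand: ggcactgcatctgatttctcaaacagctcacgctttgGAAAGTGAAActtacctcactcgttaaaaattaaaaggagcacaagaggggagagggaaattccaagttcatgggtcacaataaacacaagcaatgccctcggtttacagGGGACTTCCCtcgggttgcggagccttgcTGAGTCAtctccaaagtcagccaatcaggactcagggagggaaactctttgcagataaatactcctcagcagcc
Cxcl1, chr5:90890995-90891244, plus strand: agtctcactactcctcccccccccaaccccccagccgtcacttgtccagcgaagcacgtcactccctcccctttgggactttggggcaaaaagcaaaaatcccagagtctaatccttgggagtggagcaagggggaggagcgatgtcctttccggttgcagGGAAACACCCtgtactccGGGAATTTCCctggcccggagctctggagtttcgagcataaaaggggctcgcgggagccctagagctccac
Ifit1, chr19:34640639-34640888, plus strand: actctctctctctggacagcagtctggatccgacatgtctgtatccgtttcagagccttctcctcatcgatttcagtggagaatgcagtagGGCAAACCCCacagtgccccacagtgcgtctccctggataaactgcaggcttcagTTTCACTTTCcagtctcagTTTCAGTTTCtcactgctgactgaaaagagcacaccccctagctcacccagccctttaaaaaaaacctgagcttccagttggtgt
Ifit3, chr19:34583279-34583528, plus strand: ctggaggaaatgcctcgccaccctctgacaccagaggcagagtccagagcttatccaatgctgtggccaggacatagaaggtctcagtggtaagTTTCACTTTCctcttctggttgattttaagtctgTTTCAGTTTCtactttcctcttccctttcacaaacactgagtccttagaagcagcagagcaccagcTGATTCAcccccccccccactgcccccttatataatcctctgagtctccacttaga
Both strands were searched for the interferon-stimulated response element (GAAA, 2 bases of any kind, GAAA), the gamma-activated site (TTCNNNGAA), an NF-kB site (GGG, 2 bases of any kind, TT, 1 base of any kind, CC), the E-box (CACGTG), the AP-1 site (TGANTCA), the core of a ROR element (TAGGTCA, added after the values were seen) and the CArG box. The Cxcl10 window held 1 response element (GAAAGTGAAA, which starts 213 bases before the gene), 1 NF-kB site (GGGACTTCCC, from base 103) and 1 AP-1 site (TGAGTCA, from base 74). The Cxcl1 window held 2 NF-kB sites, GGGAATTTCC on the strand of the gene and GGGTGTTTCC on the other strand, and none of the other motifs. Among the 32851 windows of this length in the table, 2.98% held the response element, 4.11% the NF-kB site and 6.75% the AP-1 site. Of the 13 genes of the type I interferon response that lay above healthy on all week 1 arrays, 8 had a window and 4 held the response element: Ifit1 and Ifit3 with 2 matches each, Rsad2 with 1, and Oas1a with 2 that overlap. The Ifit1 window also held an NF-kB site (GGGGTTTGCC, on the other strand, from base 159), and the Ifit3 window an AP-1 site (TGATTCA, from base 56). Windows were found for 7 of the 9 called genes. Npas2, Chil1 and Tnc held none of the motifs, Gfpt2 held an AP-1 site and Upk3b the ROR core. These matches describe letters, not binding.

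Cxcl10, which encodes a ligand of the receptor CXCR3, was the gene that rose most. Its log2 intensities were 7.42, 7.84 and 7.83 on the healthy arrays, 10.19, 9.53 and 10.78 on the MDA micro arrays and 11.11, 11.34 and 10.92 on the MDA-LM2 micro arrays. Every week 1 array lay well above every healthy array, and the groups did not overlap. The pooled log2 fold change was 2.95 ± 0.35 (SE, 6 against 3 arrays), or 7.72-fold, with an adjusted p of 0.0271 by limma. By line the log2 fold change was 2.47 ± 0.28 in MDA micro and 3.43 ± 0.28 in MDA-LM2 micro, a difference of 0.96 (95% confidence interval 0.32 to 1.60) that did not pass over all genes (adjusted p = 0.229). At week 3 the mean level was higher again, 12.92 in MDA macro and 12.50 in MDA-LM2 macro.

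Chil1 encodes a secreted chitinase-like protein that binds chitin without cutting it. Log2 intensities of Chil1 were 9.52, 9.84 and 9.33 in healthy lungs, 10.91, 10.85 and 10.85 in MDA micro and 10.87, 10.96 and 11.33 in MDA-LM2 micro. The week 1 arrays lay close together apart from the highest, MDA-LM2 micro replicate 3, and all stood above the healthy arrays. Chil1 rose by 1.39 ± 0.14, or 2.63-fold (adjusted p = 0.0197), and the lines differed by 0.19 (95% confidence interval -0.18 to 0.55).

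Tnc encodes tenascin C, a matrix glycoprotein that is laid down in wounds and around tumours. Its log2 intensities were 10.60, 10.31 and 9.72 in healthy lungs, 11.67, 11.49 and 11.46 in MDA micro and 11.58, 11.64 and 11.73 in MDA-LM2 micro. The 6 week 1 arrays spanned less than the 3 healthy ones, and no array overlapped. Tnc rose by 1.39 ± 0.17, or 2.62-fold (adjusted p = 0.0282), by 1.33 ± 0.20 in MDA micro and 1.44 ± 0.20 in MDA-LM2 micro. A second Tnc probe set gave 0.72, also with every week 1 array above every healthy one. Gpc1 encodes glypican-1, a heparan sulphate proteoglycan of the cell surface that binds growth factors. Gpc1 stood at 9.44, 9.58 and 9.20 in healthy lungs, 10.26, 10.61 and 10.47 in MDA micro and 10.38, 10.67 and 10.63 in MDA-LM2 micro, and rose by 1.10 ± 0.13, or 2.14-fold (adjusted p = 0.0249). Both genes had higher means at week 3 than at week 1, 12.59 and 12.66 for Tnc and 11.25 and 10.89 for Gpc1 in MDA macro and MDA-LM2 macro.

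**Figure D1:**
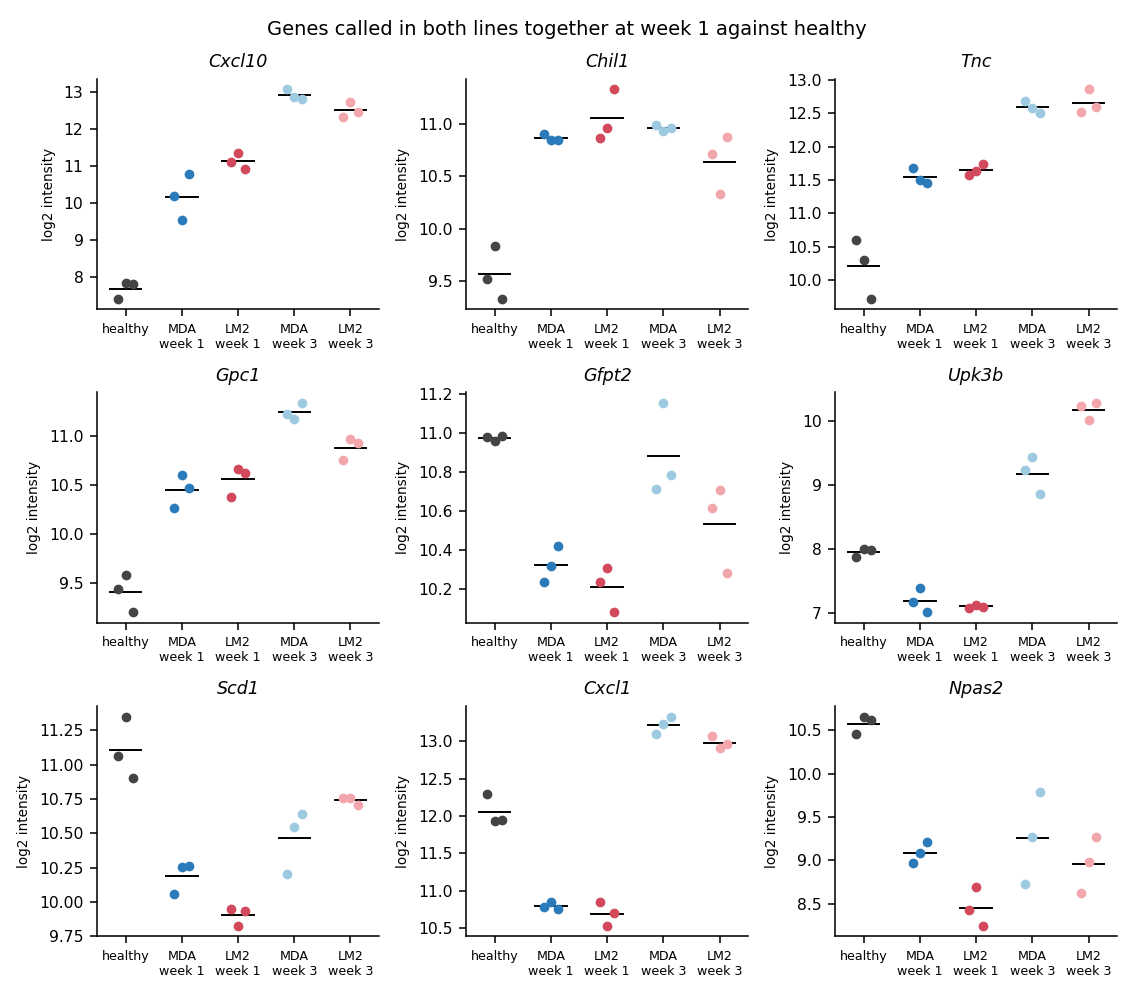
Log2 intensity of the 9 genes called in the pooled week 1 comparison, on each array (points) of the healthy, week 1 and week 3 groups, with the mean of each group of 3 arrays as a line; each panel has its own axis range and LM2 stands for MDA-LM2. In all 9 panels the 6 week 1 points lie entirely above or entirely below the 3 healthy points, and for Cxcl1 and Upk3b the week 3 points lie on the other side of healthy from the week 1 points.

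Of the 5 genes that fell, Cxcl1 had the lowest adjusted p of any gene. It encodes a chemokine that draws neutrophils through the receptor CXCR2. The log2 intensities of Cxcl1 were 12.30, 11.94 and 11.95 in healthy lungs, 10.79, 10.85 and 10.76 in MDA micro and 10.85, 10.53 and 10.70 in MDA-LM2 micro. All week 1 arrays lay more than a log2 unit below the lowest healthy array, and the MDA and MDA-LM2 arrays interleaved. Cxcl1 fell by 1.31 ± 0.12, that is 2.49-fold (adjusted p = 0.00901), and the lines differed by -0.11 (95% confidence interval -0.41 to 0.20). The 2 other probe sets of the gene gave -1.21 and -1.40, each with no overlap of the groups, although the first of them was not called when it stood for the gene (adjusted p = 0.159). At week 3 Cxcl1 was on the other side of healthy, with means of 13.22 and 12.98. Cxcl10 and Cxcl1 thus moved in opposite directions on all 6 week 1 arrays and were both above healthy at week 3.

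Npas2 encodes a clock activator that pairs with the product of Arntl and can stand in for CLOCK. Its log2 intensities were 10.46, 10.66 and 10.62 on the healthy arrays, 8.96, 9.08 and 9.21 in MDA micro and 8.43, 8.69 and 8.24 in MDA-LM2 micro. Healthy arrays lay within a narrow range far above all others, and the MDA-LM2 micro arrays lay below the MDA micro arrays. Npas2 fell by 1.81 ± 0.21, that is 3.51-fold (adjusted p = 0.0249). The change was -1.49 ± 0.14 in MDA micro and -2.13 ± 0.14 in MDA-LM2 micro on the log2 scale, a difference of -0.63 (95% confidence interval -0.95 to -0.32) that was not called over all genes (adjusted p = 0.104). Npas2 was the only gene called in MDA micro on its own (adjusted p = 0.033) when the 3 groups were fitted apart, a fit that called 172 genes in MDA-LM2 micro. A second probe set gave -0.80, again with no overlap.

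Scd1 encodes stearoyl-CoA desaturase, which makes monounsaturated fatty acids. It stood at 11.06, 11.35 and 10.90 in healthy lungs, 10.06, 10.25 and 10.27 in MDA micro and 9.95, 9.83 and 9.93 in MDA-LM2 micro, and fell by 1.06 ± 0.14, that is 2.08-fold (adjusted p = 0.0379). Its other probe set gave -0.77 with no overlap. Gfpt2 encodes an enzyme that feeds sugar into hexosamine synthesis, the source of the sugar units of proteoglycans. Gfpt2 had 10.98, 10.96 and 10.98 in healthy lungs, 10.23, 10.32 and 10.42 in MDA micro and 10.24, 10.31 and 10.08 in MDA-LM2 micro, and fell by 0.71 ± 0.10, that is 1.64-fold (adjusted p = 0.0442). The 3 healthy arrays were nearly alike for Gfpt2, and its change was under 2-fold.

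Upk3b encodes a uroplakin found on mesothelial cells, the lining of the lung surface. It read 7.87, 7.99 and 7.99 in healthy lungs, 7.17, 7.40 and 7.01 in MDA micro and 7.08, 7.13 and 7.10 in MDA-LM2 micro, with no overlap between healthy and week 1. Upk3b fell by 0.81 ± 0.10 (adjusted p = 0.0379), and its other probe set gave -1.33 with no overlap. Upk3b was removed by a filter on low values tried as an alternative. Without a detection call, its week 1 level could not be told from background. Its week 3 means, 9.18 in MDA macro and 10.18 in MDA-LM2 macro, lay above healthy. Of 16 measured mesothelial markers, Upk3b was the only one called, and 3 lay below healthy on all 6 arrays: Upk3b, Gpm6a (-1.06 ± 0.31) and Msln, the mesothelin gene (-0.32 ± 0.12). Gpm6a and Msln read lower still at week 1, at 5.57 to 6.30 and 6.19 to 6.47, and have the same limit. The summed intensity of the list ranged from 8821 to 9283 on healthy arrays and from 7199 to 9374 at week 1, so the list as a whole overlapped. The part of mesothelial cells in the fall of Upk3b was not tested.

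Across all 18194 genes, 1633 had an unadjusted p under 0.05, 708 higher and 925 lower, and 7 of the 9 called genes changed at least 2-fold. The calls rest on few arrays. Without healthy replicate 3, 0 genes were called and the adjusted p of the 9 genes was 0.0511 to 0.218. Their directions could not change in such a fit, because their groups did not overlap. The count of called genes was 2 without healthy replicate 1, 2 without healthy replicate 2, and 2, 11 and 4 without MDA micro replicates 1, 2 and 3. It was 3, 6 and 3 without MDA-LM2 micro replicates 1, 2 and 3. Across the 9 fits that left out 1 array each, Cxcl1 was called in 8 and Chil1 in 6, Gpc1 and Npas2 in 3, Cxcl10 and Tnc in 2, Scd1 and Upk3b in 1 and Gfpt2 in 0. In those fits Cxcl10 stayed between 2.81 and 3.17, Npas2 between -1.90 and -1.70, and Cxcl1 between -1.38 and -1.20.

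Since the pooled test counts a difference between the lines as noise, it favours genes that changed alike in both. A fit with the 3 groups apart, which averages the 2 line contrasts and takes the spread within groups only, called 62 genes. Of these, 60 had the same sign in both lines (0.33% of genes), 42 higher and 18 lower, and all 9 genes above were among them. The groups did not overlap for 52 of the 60, and 12 also differed between the lines. The remaining 2 genes, Scube3 and Map3k7cl, had opposite signs. Over all genes 75 (0.412%) differed between MDA-LM2 micro and MDA micro, 61 of them higher in MDA-LM2 micro, and 0 of the 9 genes called in the pooled test were among them (limma, lowest adjusted p 0.104, for Npas2). The 95% confidence interval of the line difference left out 0 for Cxcl10 and Npas2 among them, both farther from healthy in MDA-LM2 micro.

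A further 8 genes lay just outside the threshold of the pooled test at an adjusted p of 0.0621 each, and all 8 were called in the 3-group fit. They are named after their values were seen. Kif26b, a kinesin family gene, had 1.42 ± 0.21, with 6.54 to 7.22 on healthy and 7.94 to 8.81 on week 1 arrays. Tgm1, a transglutaminase gene, had 1.13 ± 0.17. The other 6 were lower: Gli1, the transcription factor and target of Hedgehog signalling (-0.99 ± 0.15), Fgd5 (-0.98 ± 0.15), Iyd, the iodotyrosine deiodinase gene (-0.97 ± 0.14), Ccdc138 (-0.94 ± 0.14), Twist2, a transcription factor of mesenchymal cells (-0.84 ± 0.13), and Zc2hc1c (-0.71 ± 0.10). Other probe sets gave 0.11 and -0.19 for Zc2hc1c and -0.24 for Ccdc138, all with overlap. Ccdc138 read 6.53 to 6.94 at week 1, which could not be told from background without a detection call. Kif26b was far higher at week 3, with means of 11.55 and 11.69.

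**Figure D2:**
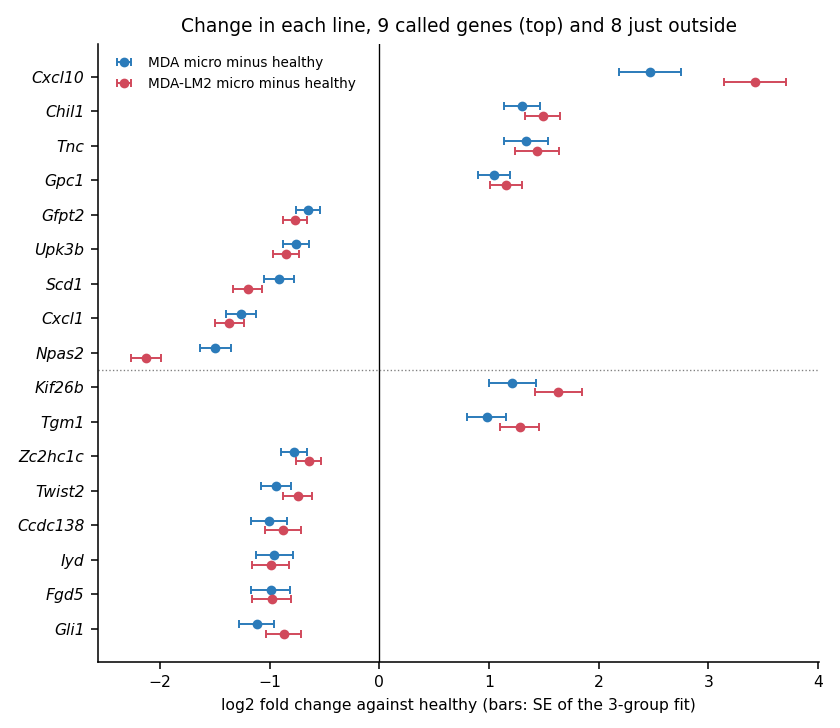
Log2 fold change against healthy in MDA micro (blue) and MDA-LM2 micro (red), with the SE of the fit with 3 groups as bars, for the 9 called genes above the dotted line and the 8 genes just outside the threshold below it. Both lines lie on the same side of 0 for all 17 genes, and the largest gap between lines is that of Cxcl10, at 2.47 and 3.43.

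Lists of genes were described by how many members lay above or below all 3 healthy arrays on all 6 week 1 arrays, beside the same count over all genes. Of all genes, 445 (2.45%) lay above and 424 (2.33%) below, 34 and 25 of them by at least 2-fold. Members of a list share the same 3 healthy arrays and are not independent of each other, so the counts are a description with no test. Some genes, such as Has1, Dcn and Per1, belonged to several lists and were counted in each.

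**Figure D3:**
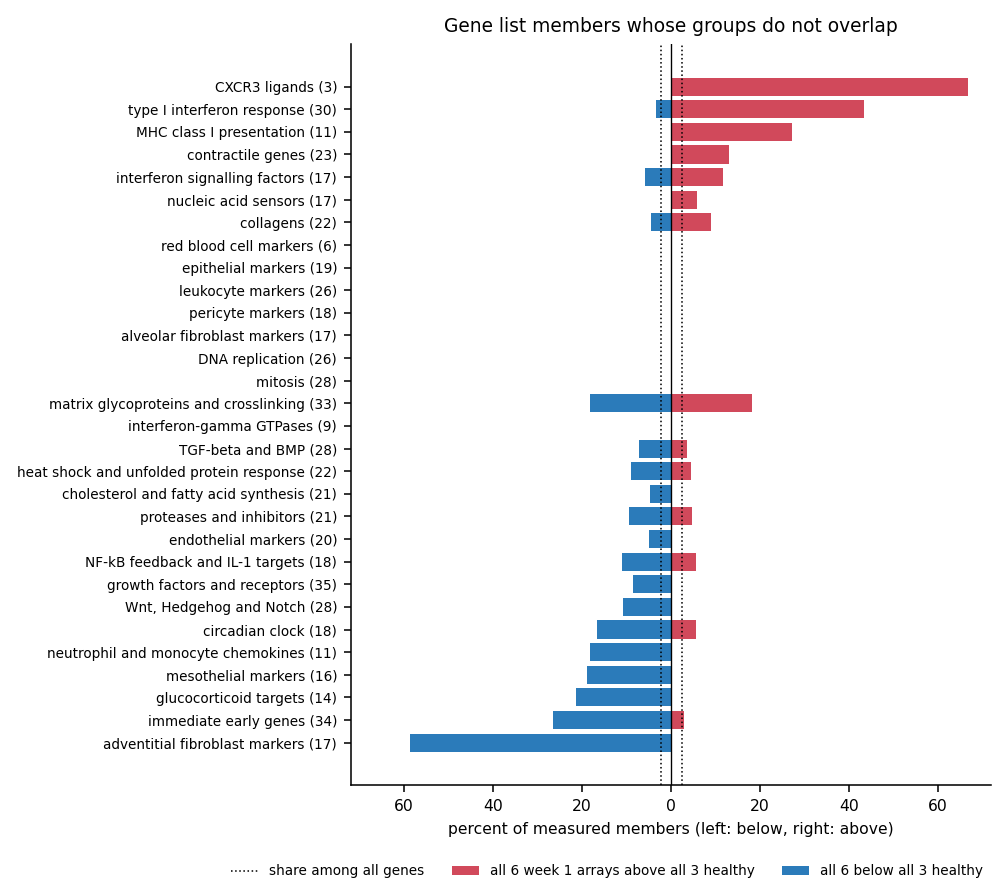
Percent of the measured members of 30 gene lists (number in parentheses) for which all 6 week 1 arrays lay above (red, to the right) or below (blue, to the left) all 3 healthy arrays; dotted lines mark the shares among all genes, 2.45% and 2.33%. Adventitial fibroblast markers reach the farthest to the left, 58.8%, and CXCR3 ligands and the type I interferon response the farthest to the right, 66.7% and 43.3%.

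Of the 3 ligands of CXCR3, Cxcl10 was called, Cxcl9 lay above healthy on all week 1 arrays, and Cxcl11 overlapped (-0.20 ± 0.18, adjusted p = 0.804). Cxcl11 read 5.83 to 6.47 in healthy lungs and 5.54 to 6.15 at week 1, levels that could not be told from background without a detection call. Cxcl9 had log2 intensities of 5.96, 5.92 and 6.05 in healthy lungs, 7.37, 6.99 and 7.44 in MDA micro and 8.61, 8.37 and 8.10 in MDA-LM2 micro. The 3 groups formed 3 separate steps. The pooled log2 fold change of Cxcl9 was 1.84 ± 0.33 and was not called (adjusted p = 0.115), whereas the 3-group fit called it (adjusted p = 0.00342). MDA-LM2 micro exceeded MDA micro by 1.10 (95% confidence interval 0.72 to 1.47) with an adjusted p of 0.0309. Cxcl9 fell under the filter on low values tried as an alternative, and without a detection call its healthy level could not be told from background, so its fold change may be understated. A second Cxcl9 probe set gave 0.44, again with all 6 arrays above healthy. The study chose these ligands from these samples, and their count is not independent evidence. Among 11 chemokines for neutrophils and monocytes, 0 were above healthy on all arrays and 2 were below, Cxcl1 and the eosinophil chemokine gene Ccl11 (-0.59 ± 0.20). Cxcl2 (-0.63 ± 0.31) and Cxcl5 (-0.24 ± 0.17) were not called and overlapped. Cxcl2 read 7.15, 5.60 and 5.60 in healthy lungs and 5.32 to 5.83 at week 1, and Cxcl5 5.74 to 6.35 at week 1. Without a detection call, these week 1 levels could not be told from background. The highest member was Ccl5, a chemokine gene whose product attracts T cells and monocytes, at 0.89 ± 0.27 with overlap (adjusted p = 0.361).

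Genes of the type I interferon response stood mostly higher at week 1. Of 30 measured members, 13 (43.3%) lay above healthy on all week 1 arrays and 1 below, and the median log2 fold change was 0.37 against 0.01 over all genes. The pooled test called 0 of them, 16 had an unadjusted p under 0.05, all higher, and the 3-group fit called 6. Over all 18194 genes, 708 were higher at that unadjusted threshold, and the 3-group fit called 44 higher. Ifit1, an RNA-binding antiviral gene, had 8.81, 8.70 and 9.50 in healthy lungs, 9.91, 10.10 and 10.27 in MDA micro and 11.25, 10.99 and 10.61 in MDA-LM2 micro. Here healthy replicate 3 came nearest to the week 1 arrays, and MDA-LM2 micro lay above MDA micro. The log2 fold change of Ifit1 was 1.52 ± 0.30 (adjusted p = 0.174 in the pooled test, 0.0294 in the 3-group fit). Oasl2, of the oligoadenylate synthetase family, had the lowest p of the list, with 9.55, 9.74 and 9.79 in healthy lungs, 10.22, 10.49 and 10.31 in MDA micro and 10.54, 10.69 and 10.73 in MDA-LM2 micro. Its difference was 0.80 ± 0.13, with an adjusted p of 0.0929 in the pooled test and 0.0256 in the 3-group fit. The nucleic acid sensor gene Zbp1 had 1.27 ± 0.25, the antiviral genes Rsad2 and Mx1 1.51 ± 0.30 and 1.44 ± 0.33, and Ifit3 0.86 ± 0.15. Of the 13 members, 12 stood farther up in MDA-LM2 micro, and Mx1 had 1.66 ± 0.37 in MDA micro against 1.22 ± 0.37 in MDA-LM2 micro. The line difference nearest to a call among them was that of Zbp1, 0.80 (95% confidence interval 0.47 to 1.12), with an adjusted p of 0.059.

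Of 17 factors that carry the interferon signal, Irf7, which drives the second wave of interferon genes, was higher with 7.73, 8.19 and 8.07 in healthy lungs, 9.13, 8.73 and 8.96 in MDA micro and 9.43, 9.38 and 9.53 in MDA-LM2 micro. Its log2 fold change of 1.19 ± 0.19 had an adjusted p of 0.0777 in the pooled test and 0.0156 in the 3-group fit. Irf1, a factor induced by interferon-gamma and NF-kB, stood the other way with -0.46 ± 0.10 (adjusted p = 0.186), with 10.66 to 10.92 in healthy lungs and 10.22 to 10.51 at week 1. At week 3 the Irf1 means, 11.80 and 11.43, were above healthy. None of the 9 measured GTPases induced by interferon-gamma left the healthy range on all 6 arrays, though all 9 had a positive difference, with a median of 0.36. Of 11 genes of MHC class I presentation, 3 were above on all arrays, among them the immunoproteasome subunit gene Psmb9 (0.36 ± 0.11).

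Targets of NF-kB stood on both sides of healthy. Of 18 feedback genes and interleukin-1 targets, 1 lay above and 2 below healthy on all week 1 arrays, the median was -0.15, and 0 were called. The cytokine gene Il6 had 8.48, 9.52 and 8.72 in healthy lungs, 7.67, 7.91 and 8.08 in MDA micro and 7.35, 8.06 and 7.17 in MDA-LM2 micro, a difference of -1.20 ± 0.27 with no overlap (adjusted p = 0.194). Tnfaip3, which encodes the NF-kB inhibitor A20, had -0.83 ± 0.20, or -0.19 with overlap on another probe set, and the prostaglandin synthase gene Ptgs2 had -1.36 ± 0.33 with an overlap of 1 MDA micro array. The member that lay above was Tnfaip2, at 0.91 ± 0.21. At week 3 the means were 12.21 and 11.43 for Il6 and 12.31 and 12.36 for Ptgs2, well above healthy levels of 8.91 and 9.43.

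Immediate early genes stood mostly lower. Of 34 measured members, 9 (26.5%) lay below healthy on all 6 week 1 arrays and 1 above, 28 had a negative difference, and the median was -0.24. The pooled test called 0, and the 3-group fit called 2, Fosb and Atf3, beside 18 lower among all 18194 genes. Fosb, an AP-1 subunit gene, had 11.97, 12.13 and 11.83 in healthy lungs, 11.48, 10.77 and 11.27 in MDA micro and 9.68, 10.13 and 10.33 in MDA-LM2 micro. The MDA-LM2 micro arrays lay farthest down, and the line difference was -1.12 (95% confidence interval -1.62 to -0.63), with an adjusted p of 0.0719. Fosb differed by -1.37 ± 0.36 (adjusted p = 0.267 in the pooled test, 0.0297 in the 3-group fit). Klf4, a transcription factor gene, had the lowest p of the list in the pooled test and its log2 intensities were 12.05, 11.85 and 12.22 in healthy lungs, 11.46, 10.94 and 11.43 in MDA micro and 11.15, 11.33 and 11.26 in MDA-LM2 micro. The lines interleaved, and no week 1 array reached the healthy range. Its log2 fold change was -0.78 ± 0.14 (adjusted p = 0.113), and -0.97 on a second probe set. Jun (-0.40 ± 0.10), Nr4a1 (-0.58 ± 0.15), Atf3 (-0.91 ± 0.24) and Socs3 (-0.67 ± 0.18) also lay below on all arrays. The member above was Rgs2, a regulator of G protein signalling, at 0.61 ± 0.15, while its 3 other probe sets gave 0.36 to 0.61 with overlap. Without healthy replicate 1 the count below rose from 9 to 14, beside 5.13% of all genes. Such a count can only stay or rise when an array is left out.

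Of the heat shock list, Hspa1a, the inducible HSP70 gene, had 10.94, 10.71 and 10.39 in healthy lungs, 8.93, 9.21 and 10.14 in MDA micro and 9.44, 9.36 and 9.62 in MDA-LM2 micro, a difference of -1.23 ± 0.23 (adjusted p = 0.153). Only 2 of 22 members, Hspa1a and Hspa1b, lay below healthy on all arrays. Hspb1 lay above at 0.44 ± 0.10, or 0.48 with overlap on another probe set. Glucocorticoid targets had 3 of 14 members below and 0 above, Per1, Errfi1 (-0.93 ± 0.28) and the receptor gene Nr3c1, with a list median of -0.25. Another Errfi1 probe set gave -0.67 with overlap. Genes of these lists can respond to tissue digestion and sorting, for which no time per mouse is given in the sources used here, and its part in the values was not tested.

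**Figure D4:**
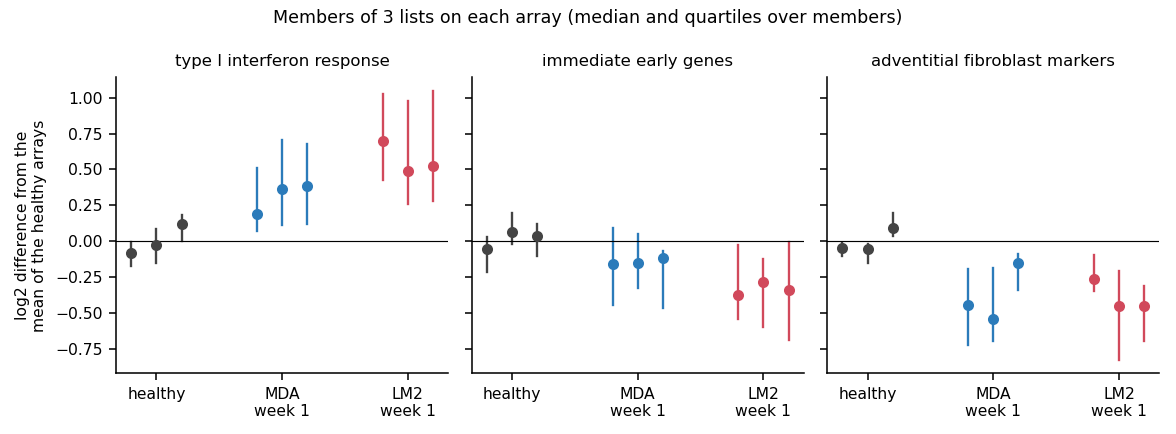
Log2 difference of each array from the mean of the 3 healthy arrays, as the median (point) and quartiles (bar) over the members of 3 lists, for the 3 arrays of each of the healthy, MDA week 1 and MDA-LM2 (LM2) week 1 groups. Medians of the type I interferon response are 0.19 to 0.39 in MDA micro and 0.49 to 0.70 in MDA-LM2 micro, those of immediate early genes -0.16 to -0.12 and -0.37 to -0.29, and those of adventitial fibroblast markers -0.54 to -0.15 and -0.45 to -0.26.

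The clock genes stood on both sides of healthy. Beside the call of Npas2, its partner gene Arntl had 8.79, 8.73 and 9.25 in healthy lungs, 8.14, 8.34 and 8.05 in MDA micro and 7.63, 8.04 and 8.03 in MDA-LM2 micro, a log2 fold change of -0.88 ± 0.16 (adjusted p = 0.139), or -0.18 with overlap on a second probe set. Dbp, an output gene switched on by that pair, stood higher at week 1, with 8.81, 9.28 and 8.04 in healthy lungs, 10.24, 10.22 and 9.99 in MDA micro and 10.43, 9.85 and 10.50 in MDA-LM2 micro. The log2 fold change of Dbp was 1.49 ± 0.24 (adjusted p = 0.0929), and 0.81 with overlap on its other probe set. Healthy replicate 3 was the lowest array for Dbp and the highest for Arntl. The related output gene Tef had 0.60 ± 0.23, and the repressor genes Nr1d2 and Nr1d1 had 0.71 ± 0.22 and 0.35 ± 0.47, all 3 with overlap. The 2 other probe sets of Tef gave 0.70 and 1.01, both with all 6 week 1 arrays above healthy, and a second one of Nr1d2 gave 0.79 with overlap. Among the Per genes, Per1 had -0.93 ± 0.33 and lay below on all arrays, by a narrow margin for MDA-LM2 micro replicate 3, whereas Per2 (0.39 ± 0.24) and Per3 (0.38 ± 0.24) overlapped. The 2 other probe sets of Per2 gave 0.47 and 0.05, both with overlap, and the 5 others of Per3 gave 0.34 to 0.83, 2 of them with all 6 arrays above healthy. In total, 3 of 18 clock genes lay below healthy on all arrays and 1 above, and the list median was 0.07. The hour at which lungs were taken is not given in the sources used here, so a difference in hour between healthy and week 1 mice and an effect of metastases on the clock cannot be told apart.

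**Figure D5:**
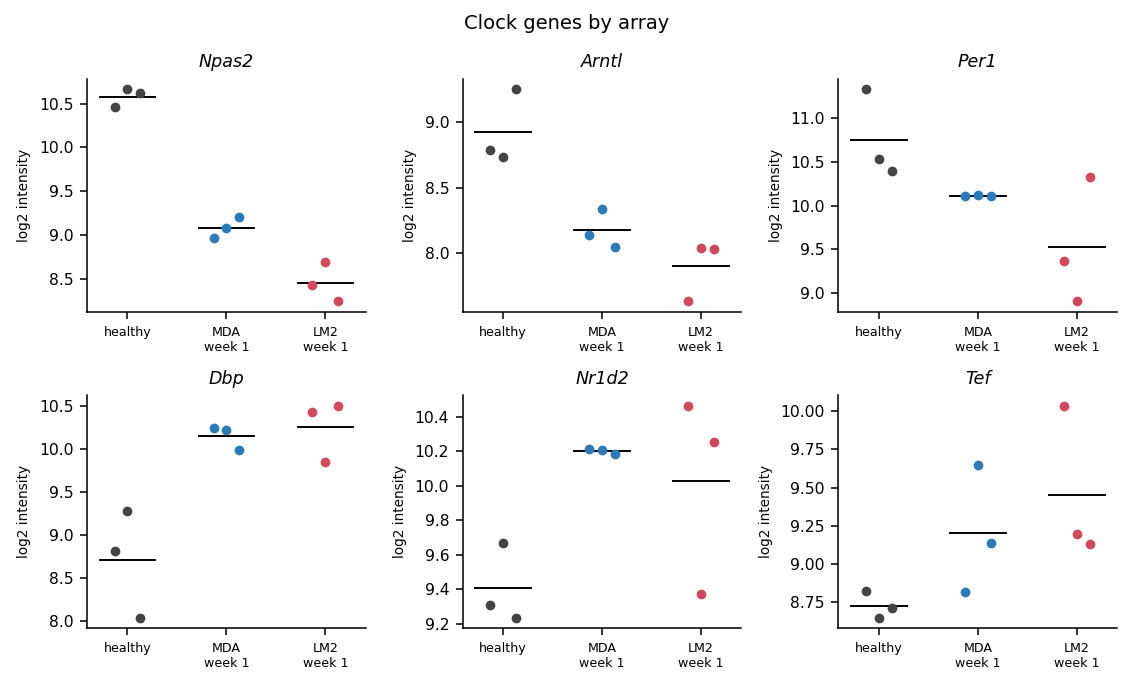
Log2 intensity of 6 clock genes on each of the 3 healthy, 3 MDA week 1 and 3 MDA-LM2 (LM2) week 1 arrays (points), with group means as lines; each panel has its own axis range. Npas2, Arntl and Per1 lie lower on all 6 week 1 arrays, Dbp lies higher on all 6, and Nr1d2 and Tef overlap with healthy.

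Markers of adventitial fibroblasts, which lie around vessels and airways, stood lower at week 1. All 17 measured members had a negative difference, 10 (58.8%) lay below healthy on all 6 week 1 arrays, and the median was -0.44, with -0.44 in MDA micro and -0.41 in MDA-LM2 micro. The pooled test and the 3-group fit each called 0, and 10 had an unadjusted p under 0.05, all lower. Over all 18194 genes, 925 were lower at that unadjusted threshold. The alarmin gene Il33 had 10.66, 10.82 and 11.36 in healthy lungs, 9.72, 10.01 and 10.43 in MDA micro and 10.38, 10.12 and 10.19 in MDA-LM2 micro, a difference of -0.81 ± 0.19 (adjusted p = 0.207). Has1, a hyaluronan synthase gene, had -0.92 ± 0.19 (adjusted p = 0.178). Pi16, a defining marker of these cells, read 12.77, 12.75 and 13.01 in healthy lungs, 12.39, 12.26 and 12.51 in MDA micro and 12.49, 12.54 and 12.24 in MDA-LM2 micro, a difference of -0.44 ± 0.11 (adjusted p = 0.245), and -0.99 with no overlap on another probe set. Igfbp6, which binds insulin-like growth factors, had -0.72 ± 0.20 with -0.45 ± 0.16 in MDA micro and -0.99 ± 0.16 in MDA-LM2 micro. Without any 1 array the count below was 10 to 13 of 17, beside 2.86% to 5.13% of all genes. Leaving out an array can only keep or raise this count, so it is no check of stability. In sorted bulk samples, fewer cells of a type and less RNA of these genes per cell cannot be told apart. Markers of alveolar fibroblasts, which line the air sacs, leaned the other way with 14 of 17 members higher and a median of 0.14, with 0.26 in MDA micro and 0.05 in MDA-LM2 micro, but 0 left the healthy range on all arrays.

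Matrix genes stood on both sides of healthy. Of 33 glycoprotein and crosslinking genes, 6 lay above and 6 below healthy on all 6 arrays, with a median of -0.05. Above were Tnc, Thbs1, the thrombospondin-1 gene (0.60 ± 0.12), Ltbp2, a latent TGF-beta binding protein gene (0.73 ± 0.16), the fibronectin gene Fn1 (0.26 ± 0.08), Eln and Emilin1. A second Fn1 probe set gave 1.07, also with no overlap. Below were Has1, Fbln2 (-0.73 ± 0.18, or -0.24 with overlap on another probe set), Comp, Fbln1, Dcn and Tnxb. Comp, a cartilage matrix gene, was called in neither fit and had -1.80 ± 0.22 in MDA micro and -0.51 ± 0.22 in MDA-LM2 micro, a line difference of 1.29 (95% confidence interval 0.78 to 1.80) with an adjusted p of 0.0539. Among collagens, Col18a1, the precursor of endostatin, had 9.95, 10.19 and 10.25 in healthy lungs, 10.84, 11.02 and 11.33 in MDA micro and 11.71, 11.40 and 11.34 in MDA-LM2 micro, a difference of 1.14 ± 0.18 (adjusted p = 0.0747, and 0.0256 in the 3-group fit), or 0.73 with overlap on another probe set. Adam12, a metalloprotease gene, had 1.28 ± 0.27 (adjusted p = 0.178), or 0.63 with overlap on another probe set, and Tgfbi, a TGF-beta-induced matrix gene, -0.61 ± 0.14 (adjusted p = 0.207). The list of Wnt, Hedgehog and Notch genes held 3 of 28 members below, Gli1, Sfrp1 (-0.57 ± 0.16) and Wnt11 (-0.50 ± 0.20), and 0 above. Other Sfrp1 probe sets gave -0.54, -0.16 and -0.58 with overlap, and -0.67 with no overlap.

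Contractile genes stood higher, and unequally in the lines. All 23 measured members had a positive pooled difference, with a median of 0.68, yet the median was 0.24 in MDA micro and 1.10 in MDA-LM2 micro. The pooled test called 0, and the 3-group fit 6, beside 44 higher among all 18194 genes. Only Actn1, Tpm1 and Cnn2 lay above healthy on all 6 arrays. Other probe sets gave 0.75 with overlap and 0.80 without for Actn1, and 0.37, 0.67 and -0.11 for Tpm1, all with overlap. Tagln, which encodes transgelin, had 12.07, 12.14 and 12.32 in healthy lungs, 12.61, 12.26 and 12.63 in MDA micro and 13.32, 13.30 and 13.40 in MDA-LM2 micro. MDA micro replicate 2 lay within the healthy range and all MDA-LM2 micro arrays lay above the other groups, with a line difference of 0.84 (95% confidence interval 0.54 to 1.14) and an adjusted p of 0.0377. Acta2, the smooth muscle actin gene, had 0.28 ± 0.14 in MDA micro and 1.08 ± 0.14 in MDA-LM2 micro. Cnn2 was the exception among the 3, at 0.37 ± 0.11 in MDA micro and 0.22 ± 0.11 in MDA-LM2 micro. Among 21 genes of cholesterol and fatty acid synthesis, Scd1 was the only one called and the only one below healthy on all arrays, 15 had a negative difference and the median was -0.14. The next members by p were Lss, with -0.76 ± 0.24, and Idi1, with -0.58 ± 0.21.

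The genes of the markers used for sorting were checked on the same arrays. Pdgfra (12.31 to 12.49 in healthy lungs, 12.15 to 12.65 at week 1) and Pdgfrb (11.72 to 11.96, then 11.67 to 12.09) overlapped, with pooled differences of -0.02 ± 0.13 and 0.04 ± 0.12. Ptprc, the gene of the leukocyte marker CD45, read 6.26 to 6.45 over the 9 arrays, Itgam 5.73 to 6.63, Epcam 6.48 to 6.71 and the endothelial gene Pecam1 7.27 to 8.27. No detection call was at hand, so a low value could not be told from background. Of 26 leukocyte markers 0 left the healthy range on all arrays. The summed intensity of the list was 3283 to 3853 on healthy and 2702 to 3588 on week 1 arrays (exact permutation test, p = 0.0952). The macrophage genes Lyz2 (-0.98 ± 0.30) and Csf1r (-0.68 ± 0.22) stood lower without a call and with overlap. Other Csf1r probe sets gave -0.21 and 0.0002, both with overlap. Endothelial, epithelial, red blood cell, mesothelial and pericyte sums overlapped as well (exact permutation p from 0.202 to 0.952). Of 11 values of array quality and marker content tested, only the difference between the 3′ and 5′ probe sets of Actb had an unadjusted exact p under 0.05 (0.076 higher at week 1, p = 0.0238, adjusted p = 0.262), with overlap of the groups. The smallest p that 6 against 3 arrays allow is 0.0119.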

How the data were processed

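RNA of sorted lung fibroblasts was preamplified and hybridised to Affymetrix Mouse Genome arrays, 15 in 5 groups of 3. The authors normalised the arrays by robust multi-array averaging (RMA) in Chipster and deposited intensities on a linear scale. How these were returned from the log scale of RMA is not given in the sources used here. RMA pulls arrays towards a common distribution, so a shift shared by most genes would not be seen. The intensities, from 31.0 to 35.2 at the lowest and from 26890 to 27897 at the highest by array, were log2 transformed here.

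Of 45100 probe sets, 64 were controls, 34957 carried 1 gene symbol, 932 several and 9211 none in the platform annotation. Each of 18194 genes was represented by its probe set with 1 symbol and the highest mean log2 intensity over the 15 arrays, and 9012 genes had several. The pooled comparison (6 week 1 arrays against 3 healthy) was fitted with limma 3.58.1 in R 4.3.3 (lmFit and eBayes) with Benjamini-Hochberg adjustment over all genes, and genes with an adjusted p under 0.05 were called. All adjusted p values in the text are limma's unless another test is named. A second limma fit with the 3 groups apart gave each line's change, their mean and their difference. Both fits were tested on simulated data with independent normal noise and the same effect in both lines. These settings differ from the real arrays, so that test does not bear on how stable the calls are. Group separation was given as all 6 week 1 arrays outside the range of the 3 healthy ones. Quality values were compared by a two-sided exact permutation test over 84 splits.

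The named genes are the called genes and members of the described lists that were separated from healthy or led their list by p. The 8 genes just outside the threshold were named after values were seen. So were Tef, Nr1d1, Per2, Per3, Fn1, Hspb1, Pi16, Ccl11, Acta2, Mx1, Oas1a, Atf3, Socs3, Errfi1, Col18a1, Adam12, Tgfbi, Comp and Psmb9. The comparison, its members and the 30 lists were chosen with earlier results of these data known. No array pair was identical. The labels give no separate mice per array, so p values measure the spread between these pools, and precision is limited by how few arrays there are. Alternatives were other fits, normalisations, filters and probe set choices, and leaving out each array. Figures were drawn with matplotlib 3.10.9 in Python 3.11.15.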

Additional observations from a re-analysis of the deposited data

Results flagged for a closer look

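Among the 109 named genes, an array stood far from the other 5 week 1 arrays in 6, by the share of the range taken by its gap. The rule flags about 1 in 20 groups of 6 independent draws from 1 normal distribution. Here the 6 arrays are of 2 lines and the genes are not independent, so that rate does not say how many to expect. Of the called genes, Chil1 was high on MDA-LM2 micro replicate 3, at 11.33 against 10.85 to 10.96 on the others. Ccdc138 was low on MDA micro replicate 2, at 6.53 against 6.81 to 6.94. Tnfaip2 was high on MDA-LM2 micro replicate 2, at 11.64 against 10.60 to 10.95. On the same array the clock repressor genes Nr1d2 and Nr1d1 were low, at 9.37 against 10.18 to 10.46 and at 9.44 against 10.84 to 11.49. Hspb1 was low on MDA-LM2 micro replicate 1, at 11.92 against 12.19 to 12.33.

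The change from healthy differed between the lines for 4 named genes by the test of the difference over all genes (limma). With MDA-LM2 micro above MDA micro, the difference was 1.10 for Cxcl9 (adjusted p = 0.0309), and 0.84 for Tagln, a contractile gene (adjusted p = 0.0377). Both genes had the same sign in both lines, and all 3 MDA-LM2 micro arrays lay above all 3 MDA micro arrays. For Scube3 and Map3k7cl, named in the text for opposite signs in the lines, it was 2.14 and 2.15 (adjusted p = 0.00245 and 0.0058), with -0.02 and -0.04 in MDA micro against 2.13 and 2.11 in MDA-LM2 micro.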

How the results depend on the processing

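The pooled test called 9 genes, 4 higher and 5 lower, all with the same sign in both lines. With the 3 groups fitted apart it was 62 genes (44 higher, 18 lower, 60 with the same sign), and with all 15 arrays in the fit 178 (110, 68 and 173). These fits take the spread within groups only. With the replicate number as a block, 1 gene was called (Cxcl1; 0 higher, 1 lower, 1 with the same sign). Deviations of same-numbered arrays correlated at -0.0598 to 0.0745, and those of arrays with different numbers at -0.0777 to 0.0482. Values this close to 0 cannot settle whether the numbers pair the arrays, so the fit with the block is not set aside. Averaging probe sets gave 16 (7, 9 and 16). Of the lower genes 2 were called after median centring, 3 with low values dropped and 3 with an intensity trend. Leaving out 1 array gave 0 to 11 genes, 0 to 7 higher, 0 to 4 lower and 0 to 11 with the same sign. The line difference held for 75 genes, and for 4 to 27 without 1 array.

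The 3-group and 15-array fits called all 9 genes. Each of the 9 kept its direction in every alternative that fitted it, and the filter on low values removed Upk3b. Because their groups did not overlap, leaving out an array could not reverse a direction. Around 0, Pdgfra was -0.075 to 0.025 and Pdgfrb -0.030 to 0.090 without 1 array, and Pdgfrb was -0.035 on unshared probe sets. Their differences of 0.017 and 0.016 (Pdgfra, without healthy replicate 2 and MDA-LM2 micro replicate 1), -0.0037 and -6.67e-05 (Pdgfrb, without MDA-LM2 micro replicates 2 and 3) also changed sign. Genes not called in the pooled test are not shown to be unchanged.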
